A study of Mus musculus with 12 samples.

Results

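The genes described are 41 that encode the mouse proteasome and its regulators, of 55487 genes in the count table. They were chosen by symbol and not by a cut on their measured values, though with earlier results of these data known. All 41 were found. They comprise the 7 alpha and 4 non-catalytic beta subunits of the 20S core, the 3 constitutive catalytic subunits Psmb5, Psmb6 and Psmb7, and the 3 immunoproteasome catalytic subunits Psmb8, Psmb9 and Psmb10. The others are 17 subunits of the 19S cap, the assembly factors Psmd10 and Pomp, the activators Psme1 to Psme4 and the inhibitor Psmf1. Poly-A RNA was sequenced from primary macrophages grown from mouse bone marrow with macrophage colony-stimulating factor. The 4 groups were Fes-/- macrophages with LPS, Fes-/- macrophages with PBS, Fes+/+ macrophages with LPS and Fes+/+ macrophages with PBS, with 3 libraries each. LPS, the bacterial ligand of TLR4, was given at 1 µg/mL for 4 hours, and the PBS groups, also labelled 4 hours, are described as untreated in the protocol. Fes encodes a cytoplasmic tyrosine kinase, and the labels state neither strain nor sex nor age.

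The proteasome degrades proteins that carry ubiquitin chains. The 20S core is a barrel of alpha and beta rings whose beta1, beta2 and beta5 sites cut the chain, and the 19S cap recognises, unfolds and feeds in substrates. In immune cells and after interferon, newly built cores take up Psmb9, Psmb10 and Psmb8 in place of Psmb6, Psmb7 and Psmb5, and the PA28 activator made of Psme1 and Psme2 can bind the core. This form is known for producing peptides that MHC class I molecules present.

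Libraries held 61016254 to 101027166 counts. Fes was at 16.0 to 16.8 TPM in the Fes-/- LPS libraries against 72.2 to 82.0 TPM in the Fes+/+ LPS libraries, and at 63.8 to 66.7 TPM in the Fes-/- PBS libraries against 154 to 174 TPM in the Fes+/+ PBS libraries. All 8 macrophage markers exceeded 1 TPM, with sums of 17180 to 22460 TPM in LPS libraries against 28880 to 39420 TPM in PBS libraries. Lyz2 made up most of each sum, at 9709 to 14215 TPM with LPS against 20245 to 29390 TPM with PBS. Cd14 and Fcgr1 went the other way, Cd14 at 2079 to 2399 against 530 to 766 TPM and Fcgr1 at 876 to 1070 against 200 to 310 TPM. In TPM, 71.3% of all tested genes were lower in every LPS library in Fes-/- and 69.1% in Fes+/+ macrophages. Neutrophil markers summed to 14.2 to 28.0 TPM in LPS libraries against 23.3 to 45.0 TPM in PBS libraries, with 3 of 8 over 1 TPM and Ly6g listed at 0 in 3 groups. B cell markers, with 1 of 4 over 1 TPM, summed to 2.47 to 4.51 TPM in LPS libraries against 19.3 to 25.7 TPM in PBS libraries. T and NK cell markers summed to at most 1.45 TPM, dendritic cell markers to at most 1.42 TPM and stromal markers to at most 0.53 TPM. The part of these cells in the results was not tested. In bulk RNA, fewer cells of a type and less RNA per cell cannot be told apart.

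Fes+/+ PBS library 2 stood apart: it was the lowest of its group for 38 of 41 members, at a median of 83.4% of the other two. Fes+/+ LPS library 2 was the lowest for 37, at 91.5%. Their effect is given beside the results that change without them.

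TPM, a transcript abundance corrected for gene length, sets levels of different genes on a scale per length and was used for levels. Fold changes were estimated from counts with edgeR after TMM scaling, which assumes that most genes do not change, and a gene was called at an adjusted p under 0.05. The choice of scale mattered for LPS. The 100 most abundant genes took 28.0% to 28.6% of counts in LPS libraries against 19.9% to 21.8% in PBS libraries, and TMM factors were 0.707 to 0.737 in LPS libraries against 1.35 to 1.40 in PBS libraries. With TMM the median log2 fold change of all genes was -0.08 in Fes-/- and -0.07 in Fes+/+ macrophages. With library totals alone it was -1.01 and -0.98. A gene at 0 on the library-total scale thus sits near 0.93 in Fes-/- and 0.91 in Fes+/+ macrophages on the TMM scale, so each LPS result is read against the other genes.

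Relative to the bulk of genes, proteasome transcripts were higher with LPS. In Fes-/- macrophages 41 of 41 members were called higher and 0 lower, against 34.3% called higher and 38.9% lower among all tested genes. In Fes+/+ macrophages 39 of 41 were called higher and 0 lower, against 34.6% higher and 38.8% lower of all genes. The members' median log2 fold change was 0.75 in Fes-/- and 0.76 in Fes+/+ macrophages, and without Fes+/+ PBS library 2 the Fes+/+ values were 39 called higher and a median of 0.67. All 41 lay above the all-gene median on both the TMM and the library-total scale in both genotypes. As a share of library totals most members did not rise. On that scale the test called 10 up and 18 down with LPS in Fes-/- macrophages, where 15.9% of all genes were up and 70% down. In Fes+/+ macrophages it called 11 up and 17 down, against 16.3% and 68.5% of all genes. The 10 called higher in both genotypes on the TMM, library-total and TPM scales were Psmb8, Psmb9, Psmb10, Psme1, Psme2, Psma3, Psma4, Psma5, Psma6 and Psmd10.

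**Figure D1:**
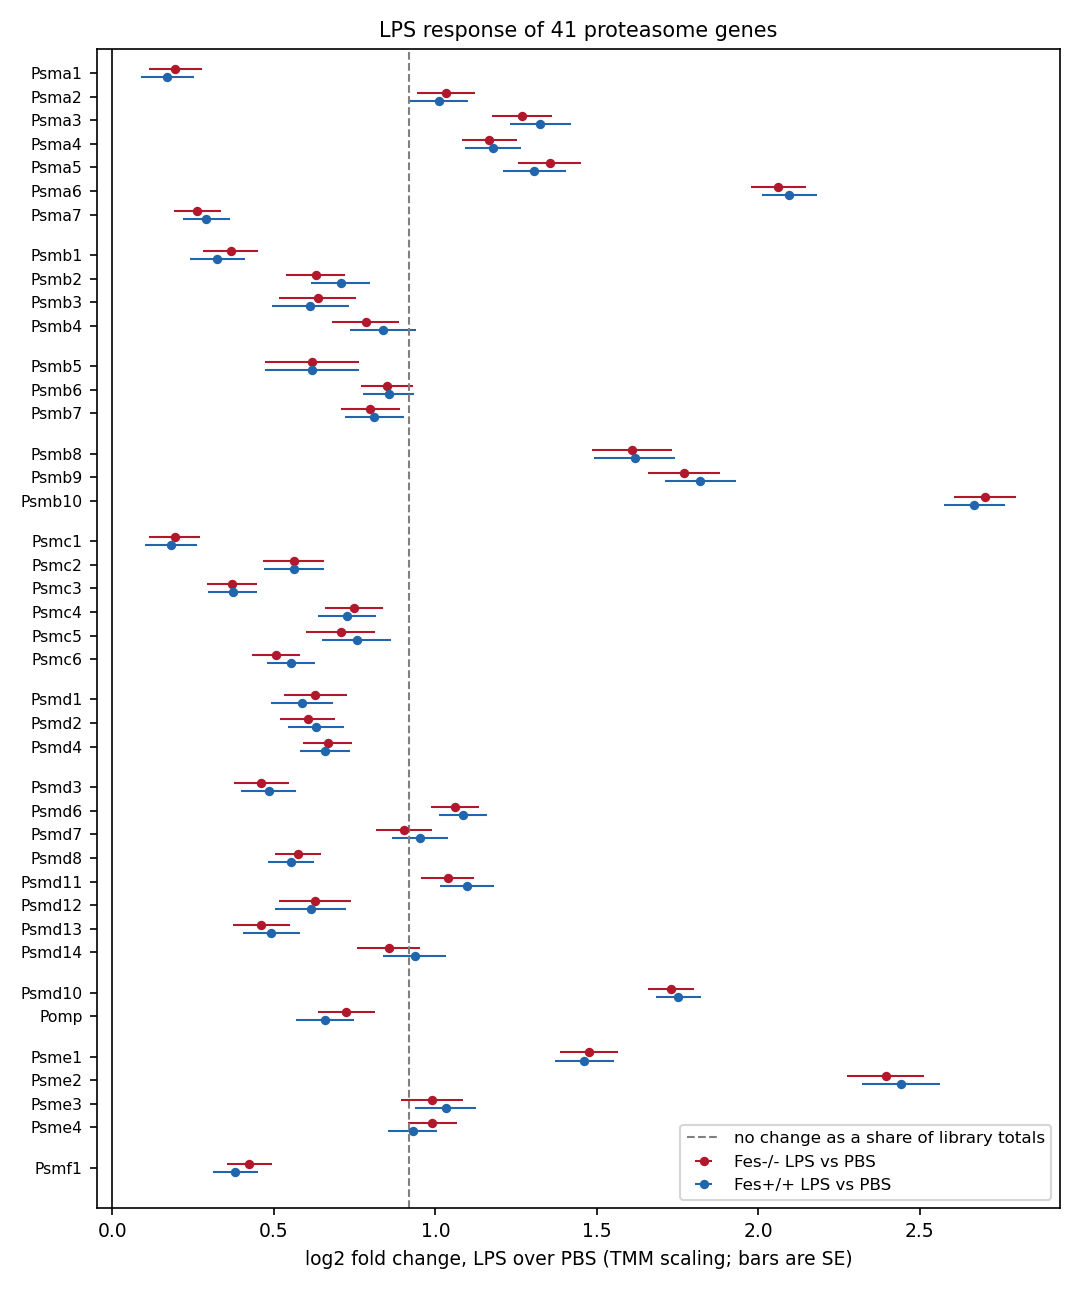
Log2 fold change of LPS over PBS (horizontal axis, TMM scaling, points with SE derived from the edgeR F statistic) for 41 genes grouped by role, Fes-/- in red above Fes+/+ in blue. The dashed line is the place of a gene whose share of library totals did not change; Psmb10, Psme2 and Psma6 lie far right of it in both genotypes, while Psma1 and Psmc1 lie near 0 and left of it, so that their direction flips with the scaling.

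In GENCODE M21 on GRCm38, Psmb8 lies at chr17:34197721-34201454 and Psmb9 at chr17:34181987-34187764, in the MHC region, and Psmb10 at chr8:105935735-105938444. The constitutive genes lie at chr14:54614119-54618022 for Psmb5, chr11:70525367-70527858 for Psmb6 and chr2:38588036-38644087 for Psmb7.

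Psmb10, the beta2i subunit, showed the largest LPS response of the 41. It had 391, 383 and 379 TPM in the Fes-/- LPS libraries, against 129.5, 117 and 102 TPM in the Fes-/- PBS libraries. It had 384, 374 and 386 TPM in the Fes+/+ LPS libraries, against 108, 105 and 132 TPM in the Fes+/+ PBS libraries. All LPS libraries were above all PBS libraries, and within each treatment the genotypes overlapped. The edgeR log2 fold change was 2.70 ± 0.096 (SE, adjusted p = 2.73e-12) in Fes-/- and 2.67 ± 0.096 (adjusted p = 3.03e-12) in Fes+/+ macrophages.

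Psmb8, the beta5i subunit, had 248, 252 and 228 TPM in the Fes-/- LPS libraries, against 180.1, 149 and 141 TPM in the Fes-/- PBS libraries. Psmb8 had 241, 238 and 256 TPM in the Fes+/+ LPS libraries, against 158, 122 and 181 TPM in the Fes+/+ PBS libraries. LPS and PBS libraries did not overlap in either genotype. Its log2 fold change was 1.61 ± 0.12 in Fes-/- and 1.62 ± 0.12 in Fes+/+ macrophages (adjusted p = 1.52e-08 and 1.45e-08 in that order). Psmb9, the beta1i subunit, was the least abundant of the 3. It had 109, 100.5 and 96.7 TPM in the Fes-/- LPS libraries, against 68.9, 54.4 and 53.7 TPM in the Fes-/- PBS libraries. Psmb9 had 102, 112 and 111 TPM in the Fes+/+ LPS libraries, against 54.7, 53.2 and 68.5 TPM in the Fes+/+ PBS libraries, again without overlap between treatments. Its log2 fold change was 1.77 ± 0.11 in Fes-/- and 1.82 ± 0.11 in Fes+/+ macrophages (adjusted p = 1.49e-09 and 1.08e-09). Psmb9 shares 212 exon bases with Tap1 on the opposite strand, whose count total was 470% of its own. The labels do not state the strand setting of the counting, so reads of that stretch are uncertain.

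The constitutive partners had smaller fold changes than the immunoproteasome subunits. Psmb5, the beta5 subunit, had 90.6, 94.9 and 89.1 TPM in the Fes-/- LPS libraries, against 113, 121 and 119 TPM in the Fes-/- PBS libraries. Psmb5 had 99.6, 75.9 and 90.2 TPM in the Fes+/+ LPS libraries, against 127, 81.0 and 124 TPM in the Fes+/+ PBS libraries. The Fes-/- LPS libraries were all below the Fes-/- PBS libraries in TPM, whereas the Fes+/+ libraries overlapped through PBS library 2 and were likewise all below without it. Psmb5 was called higher on the TMM scale, at 0.62 ± 0.14 in Fes-/- and 0.62 ± 0.15 in Fes+/+ macrophages (edgeR adjusted p = 0.00156 and 0.0016). Its sign flipped with library totals, at -0.32 and -0.29, where it was not called (edgeR adjusted p = 0.0612 and 0.0815).

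Psmb6, the beta1 subunit and the most abundant of the constitutive 3, had 223, 221 and 215 TPM in the Fes-/- LPS libraries, against 239, 237 and 242 TPM in the Fes-/- PBS libraries. Psmb6 had 233, 210.2 and 215 TPM in the Fes+/+ LPS libraries, against 241, 208 and 249 TPM in the Fes+/+ PBS libraries. The beta2 subunit Psmb7 had 91.7, 92.2 and 88.0 TPM in the Fes-/- LPS libraries, against 103, 107 and 98.4 TPM in the Fes-/- PBS libraries. Psmb7 had 94.6, 77.5 and 88.3 TPM in the Fes+/+ LPS libraries, against 98.2, 82.7 and 104 TPM in the Fes+/+ PBS libraries. For both genes the Fes-/- LPS libraries lay below the Fes-/- PBS libraries. The Fes+/+ libraries overlapped, and without PBS library 2 the Fes+/+ LPS libraries also lay below the PBS libraries. On the TMM scale Psmb6 was at 0.85 ± 0.080 and 0.86 ± 0.080, and Psmb7 at 0.80 ± 0.091 and 0.81 ± 0.091, in Fes-/- and Fes+/+ macrophages. Both were called higher (edgeR adjusted p from 1.39e-07 to 1.35e-06). With library totals both signs flipped, to values that were not called (edgeR adjusted p from 0.199 to 0.523). Psmb7 shares 405 exon bases with Nek6 on the opposite strand, whose count total was 65.3% of its own. Reads of that stretch are uncertain as for Psmb9.

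**Figure D2:**
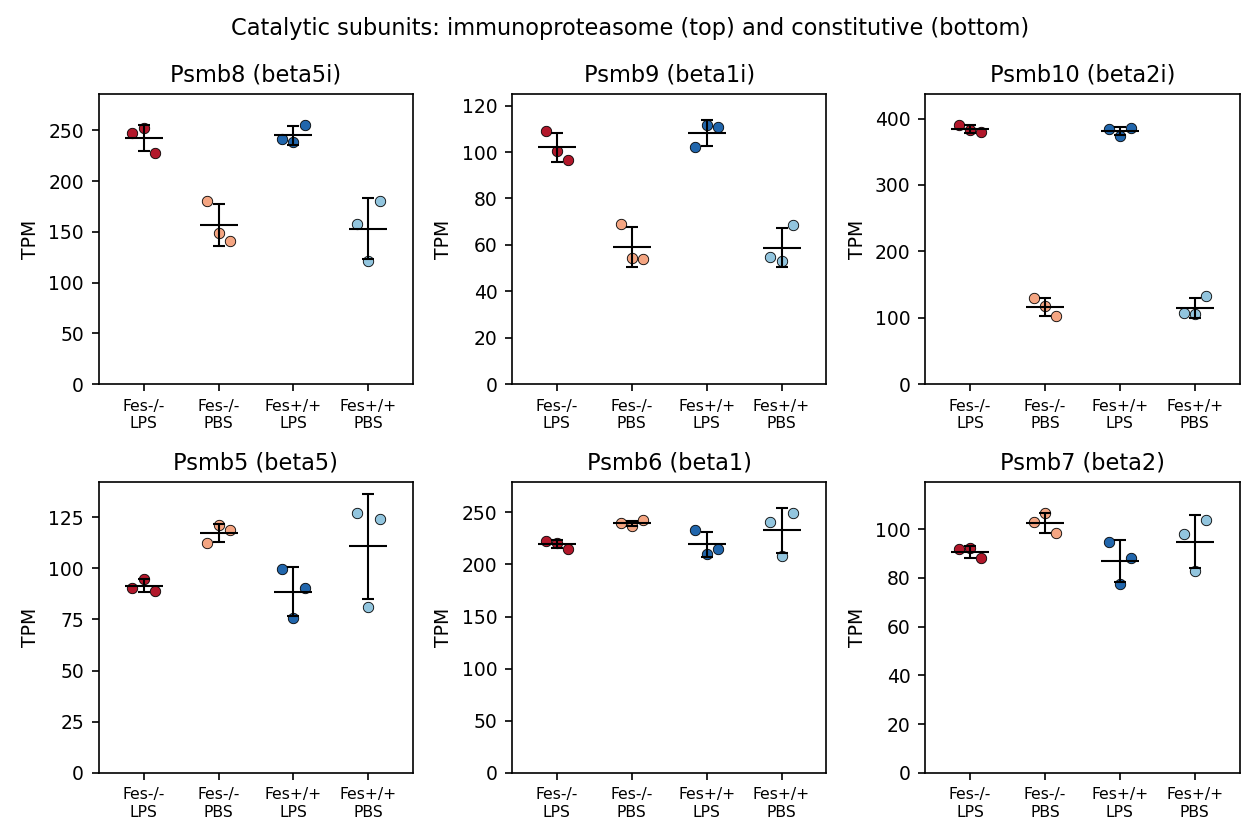
TPM of the 6 catalytic subunits in each library, by group, with group mean and SD (n = 3). The immunoproteasome subunits in the upper row are higher in every LPS library than in any PBS library, while the constitutive subunits in the lower row are level or lower in TPM under LPS, a direction that flips to higher with TMM scaling.

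The ratio within each pair does not depend on library scaling. Psmb10 made up 80.9% ± 0.30 of the Psmb10 and Psmb7 TPM in Fes-/- LPS libraries against 53.1% ± 2.4 in Fes-/- PBS libraries (SD, n = 3). In Fes+/+ macrophages it made up 81.5% ± 1.3 with LPS against 54.8% ± 2.1 with PBS. Psmb8 made up 72.6% ± 0.67 of its pair with LPS against 57.0% ± 3.9 with PBS in Fes-/- macrophages, and 73.5% ± 2.5 against 58.2% ± 2.5 in Fes+/+ macrophages. Gm3375, a processed pseudogene 98.9% identical to Psmb5 over 796 bases, carried 1.66% as many counts, so Psmb5 reads could be split. In TPM, Psmb9 remained the minor transcript of its pair. It made up 31.7% ± 0.99 with LPS against 19.7% ± 2.3 with PBS in Fes-/- macrophages, and 33.1% ± 2.3 against 20.1% ± 1.5 in Fes+/+ macrophages. Thus the Psmb10 to Psmb7 ratio was 3.75-fold and 3.64-fold higher with LPS in Fes-/- and Fes+/+ macrophages. In the same order the Psmb8 to Psmb5 ratio was 1.99-fold and 2.00-fold higher, and the Psmb9 to Psmb6 ratio 1.90-fold and 1.96-fold. The shares, unlike these fold differences, depend on the exon lengths behind TPM, such as 3660 bases for Psmb9 and 1872 for Psmb6. Uncorrected counts of Psmb9 were 12113, 8593 and 6780 in the Fes-/- LPS libraries, against 12650, 9655 and 7701 for Psmb6. In the Fes+/+ LPS libraries they were 6951, 7990 and 8062, against 8117, 7676 and 7981 for Psmb6. In the PBS libraries Psmb9 had 3633 to 4870 counts, against 7265 to 10061 for Psmb6.

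Averaged over the 3 pairs, the log2 ratio of immunoproteasome to constitutive subunit was 0.79 ± 0.037 in Fes-/- LPS libraries against -0.48 ± 0.19 in Fes-/- PBS libraries. In Fes+/+ macrophages it was 0.87 ± 0.15 with LPS against -0.41 ± 0.13 with PBS. The negative sign with PBS depended on the length correction in TPM and turned positive without it in both genotypes. The LPS minus PBS difference was 1.27 in Fes-/- and 1.28 in Fes+/+ macrophages, and LPS and PBS libraries did not overlap. The Fes-/- minus Fes+/+ difference was -0.07 with LPS and -0.07 with PBS, and these libraries overlapped. No test was made of this score.

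**Figure D3:**
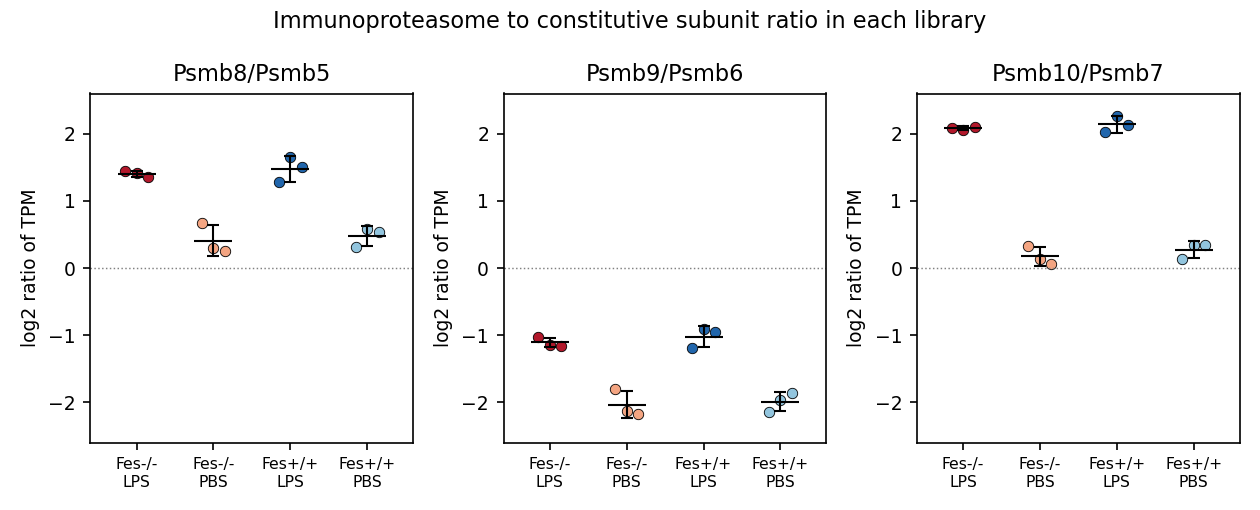
Log2 TPM ratio of each immunoproteasome subunit to its constitutive partner in each library, by group, with mean and SD (n = 3). In all 3 pairs every LPS library lies above every PBS library of its genotype, and Fes-/- and Fes+/+ libraries of one treatment overlap.

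The start regions of these genes were read for TGACNNNGC, letters of the antioxidant response element that NRF1 and NRF2 are known to bind, and for CCAAT, letters of the CCAAT box. RefSeq promoters on GRCm38.p6 matched 35 of the 41 members, Psmb7 not among them, and 250 bases before each start were read on both strands. The stretches shown are the matches near the catalytic subunit genes, 30 bases each, with the match in capitals. That in Psmb5, chr14:54618024-54618053 on the minus strand, and that in Psmb6, chr11:70525327-70525356 on the plus strand, hold TGACNNNGC. That in Psmb9, chr17:34187331-34187360 on the minus strand, holds CCAAT read on the other strand. RefSeq starts Psmb9 inside the GENCODE range given above, so this stretch lies within that range.
Psmb5: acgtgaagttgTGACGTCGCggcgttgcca
Psmb6: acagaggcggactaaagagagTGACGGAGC
Psmb9: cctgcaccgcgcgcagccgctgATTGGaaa
Of 32851 promoters, 10.16% held TGACNNNGC and 33.85% CCAAT. Among the 35 members these letters were found in 4 and 13 genes. A match is a description of letters in this window.

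Both PA28 subunits rose with LPS. Psme2, the PA28 beta subunit, had 636, 647 and 576 TPM in the Fes-/- LPS libraries, against 256, 231 and 210.2 TPM in the Fes-/- PBS libraries. Psme2 had 601, 589 and 619.9 TPM in the Fes+/+ LPS libraries, against 225, 169 and 246 TPM in the Fes+/+ PBS libraries. It was second only to Psmb10 in fold change, with log2 values of 2.40 ± 0.12 and 2.44 ± 0.12 in Fes-/- and Fes+/+ macrophages (edgeR adjusted p = 1.19e-10 and 9.80e-11). Psme2b, a single-exon copy 99.4% identical over 794 bases, carried 8.43% as many counts, so reads could be split between them. Psme1, the PA28 alpha subunit encoded 5911 bases from Psme2 on chromosome 14, had 351, 354 and 314 TPM in the Fes-/- LPS libraries, against 262, 244 and 217 TPM in the Fes-/- PBS libraries. Psme1 had 362, 342 and 348 TPM in the Fes+/+ LPS libraries, against 251, 216 and 265 TPM in the Fes+/+ PBS libraries, and neither genotype showed overlap. Its log2 fold change was 1.48 ± 0.090 and 1.46 ± 0.090. The nuclear activator Psme3, known as PA28 gamma, was at 0.99 and 1.03, and Psme4, the PA200 activator, at 0.99 and 0.93. These 2 were called higher on the TMM scale and their TPM libraries overlapped between treatments.

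Within the 20S alpha ring, which gates entry to the core, the 7 genes ranged from 0.19 to 2.06 in Fes-/- and 0.17 to 2.10 in Fes+/+ macrophages. Psma6 had 668, 664 and 664 TPM in the Fes-/- LPS libraries, against 305, 335 and 301 TPM in the Fes-/- PBS libraries. Psma6 had 641, 596 and 649 TPM in the Fes+/+ LPS libraries, against 299, 247 and 299.7 TPM in the Fes+/+ PBS libraries. It had the highest mean of the members with LPS in both genotypes, though its Fes+/+ LPS libraries overlapped those of Psme2 through library 2, and with PBS it ranked after the 19S lid gene Psmd8. Its log2 fold change was 2.06 ± 0.085 and 2.10 ± 0.085 in Fes-/- and Fes+/+ macrophages (edgeR adjusted p = 1.35e-11 and 1.17e-11). Psma6 lies on chromosome 12 beside Nfkbia, which encodes the NF-kB inhibitor IkB alpha. Of the genes in the count table, 0 lie wholly within the 70955 bases between them. Psma3, Psma4 and Psma5 followed at 1.17 to 1.35 in Fes-/- and 1.18 to 1.33 in Fes+/+ macrophages, and rose on every scale. Psma2 was at 1.03 and 1.01. Psma1 had 95.9, 98.9 and 89.3 TPM in the Fes-/- LPS libraries, against 161, 168 and 159 TPM in the Fes-/- PBS libraries. Its LPS libraries were all lower in TPM, its log2 fold change was 0.19 and 0.17 on the TMM scale, and in Fes+/+ macrophages it was not called (edgeR adjusted p = 0.0733). With libraries paired by number it was called higher there (edgeR adjusted p = 0.0355).

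The 4 non-catalytic beta subunits, Psmb1 to Psmb4, were called higher in both genotypes on the TMM scale, at 0.37 to 0.78 in Fes-/- and 0.33 to 0.84 in Fes+/+ macrophages. In TPM all 4 were lower in every Fes-/- LPS library than in any Fes-/- PBS library. In Fes+/+ macrophages Psmb1 and Psmb2 were, and without PBS library 2 Psmb3 and Psmb4 were too. Of all tested genes, 71.3% were lower in this way in Fes-/- and 69.1% in Fes+/+ macrophages, or 71.6% without that library. On the TMM scale the test called 34.3% of all genes higher in Fes-/- and 34.6% in Fes+/+ macrophages.

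The 17 genes of the 19S cap had a median log2 fold change of 0.63 in Fes-/- and 0.61 in Fes+/+ macrophages, below each immunoproteasome subunit. Its 6 ATPases, which unfold substrates, had a median of 0.53 in Fes-/- and 0.56 in Fes+/+ macrophages. Of these ATPases 6 and 5 were called higher, against 34.3% and 34.6% of all tested genes. The uncalled one was Psmc1, at 154, 162 and 142 TPM in the Fes-/- LPS libraries, against 258, 279 and 254 TPM in the Fes-/- PBS libraries. Psmc1 had 143, 140.3 and 149 TPM in the Fes+/+ LPS libraries, against 251, 221 and 260.0 TPM in the Fes+/+ PBS libraries, and its log2 fold change was 0.18 (edgeR adjusted p = 0.0527). With libraries paired by number it was called higher (edgeR adjusted p = 0.0297). The base subunits Psmd1, Psmd2 and Psmd4, which hold ubiquitin receptors, were at 0.60 to 0.67 and 0.59 to 0.66. The 8 lid genes were all called higher, at 0.46 to 1.06 in Fes-/- and 0.48 to 1.10 in Fes+/+ macrophages. Of them Psmd6 and Psmd11 were at 1.06 and 1.04 in Fes-/- and 1.08 and 1.10 in Fes+/+ macrophages. Psmd7 was at 0.90 and 0.95, and Psmd14, the deubiquitinase of the lid, at 0.86 and 0.94. With library totals the signs of Psmd7 and Psmd14 flipped in Fes-/- macrophages, and neither was called there (edgeR adjusted p = 0.754 and 0.465). A730017L22Rik, 97.9% identical to Psmd11 over 1501 bases, carried 6.14% as many counts, so Psmd11 reads could be split.

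Psmd10, known as gankyrin, is a chaperone of 19S assembly and is not part of the finished particle. It had 109, 108 and 107 TPM in the Fes-/- LPS libraries, against 64.3, 64.3 and 63.8 TPM in the Fes-/- PBS libraries. Psmd10 had 109, 107 and 109 TPM in the Fes+/+ LPS libraries, against 58.6, 59.9 and 67.0 TPM in the Fes+/+ PBS libraries. The treatments were far apart and the replicates close, and the log2 fold change was 1.73 ± 0.070 in Fes-/- and 1.75 ± 0.070 in Fes+/+ macrophages (edgeR adjusted p = 1.19e-11 and 1.05e-11). Pomp, the maturation factor of the 20S core, had 54.3, 56.1 and 49.6 TPM in the Fes-/- LPS libraries, against 66.3, 59.3 and 64.9 TPM in the Fes-/- PBS libraries. Pomp had 53.8, 53.1 and 52.7 TPM in the Fes+/+ LPS libraries, against 68.5, 56.9 and 68.7 TPM in the Fes+/+ PBS libraries. Its TPM was lower in every LPS library, while TMM scaling gave 0.72 ± 0.089 and 0.66 ± 0.089 (edgeR adjusted p = 3.14e-06 and 8.54e-06). Psmf1, the PI31 protein described as an inhibitor of the core, was the least abundant member in all 4 groups. It averaged 13.7 TPM with LPS against 20.1 TPM with PBS in Fes-/- macrophages, and 13.5 against 19.9 TPM in Fes+/+ macrophages, whereas TMM scaling gave 0.42 and 0.38.

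**Figure D4:**
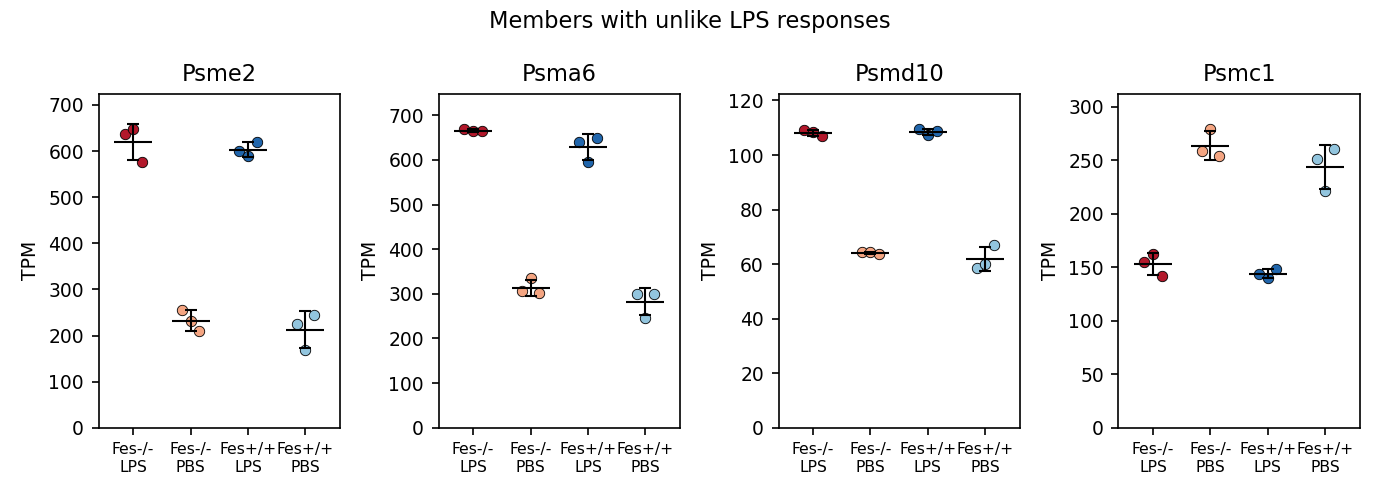
TPM of Psme2, Psma6, Psmd10 and Psmc1 in each library, by group, with group mean and SD (n = 3). The first 3 genes are higher in every LPS library than in any PBS library and Psmc1 is lower in TPM in every LPS library, while with TMM scaling Psmc1 was slightly higher.

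In TPM, the summed level of the 41 members was 6262 ± 205 with LPS against 5749 ± 208 with PBS in Fes-/- macrophages (SD, n = 3). In Fes+/+ macrophages it was 6110 ± 254 with LPS against 5415 ± 573 with PBS. LPS libraries did not overlap PBS libraries in either genotype. By gene, 11 of 41 were higher in every LPS library and 25 lower in Fes-/- macrophages, where 15.9% of all tested genes were higher and 71.3% lower. In Fes+/+ macrophages 12 were higher and 16 lower, against 16.2% and 69.1% of all genes. Without Fes+/+ PBS library 2 they were 12 and 25, against 17.1% and 71.6% of all genes, though fewer libraries also overlap less easily.

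Other genes of the pathway were described from lists of related function, with called counts on the TMM scale. They are read against all tested genes. Of these the test put 34.3% up and 38.9% down with LPS in Fes-/- macrophages, and 34.6% and 38.8% in Fes+/+ macrophages. In TPM, 15.9% were higher and 71.3% lower in every Fes-/- LPS library, with Fes+/+ shares of 16.2% and 69.1%. Of 10 further subunits and assembly factors tested, 3 passed the test upward and 2 downward in Fes-/- macrophages, 4 and 2 in Fes+/+ macrophages, while in TPM 9 in each genotype were lower in every LPS library. Among them the proteasome adaptor Ecpas was at 0.83 and 0.72, and the 19S chaperone Psmd5 at -0.66 and -0.73. Of 21 genes of ubiquitin supply and delivery, 15 passed upward and 2 downward in Fes-/- macrophages, 14 and 2 in Fes+/+ macrophages, while in TPM 18 and 16 were lower in every LPS library. Zfand5, which binds the proteasome, was at 2.45 and 2.53, and the shuttle factor Ubqln2 at -1.14 and -1.26. Of 7 genes of the NRF1 route that induces proteasome genes, 3 were higher and 4 lower in both genotypes, and in TPM 2 were higher and 5 lower in every LPS library. Counts of 3 and 4 among 7 genes lie near the shares of all genes. Ddi2, the protease that activates NRF1, was the lowest of them, at -2.61 and -2.77. Mafk and Maff were among the 3 higher, and the list reached 5.51 and 5.29.

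Of 17 tested regulators of the interferon response, 15 were called higher and 2 lower in both genotypes. In TPM 13 were higher and 2 lower in every LPS library in Fes-/- macrophages, 14 and 2 in Fes+/+ macrophages. Of all tested genes 15.9% were higher and 71.3% lower in that way in Fes-/- macrophages, and 16.2% and 69.1% in Fes+/+ macrophages. Irf1, a known activator of immunoproteasome genes, was at 3.53 ± 0.11 in Fes-/- and 3.39 ± 0.11 in Fes+/+ macrophages, and Nlrc5, the class I transactivator, at 3.68 and 3.80. Of 10 genes of peptide trimming and transport, 9 were higher and 1 lower in both genotypes, while in TPM 4 were higher and 5 lower in every LPS library. Tap1 and Tap2, the peptide transporter of the endoplasmic reticulum, were at 2.74 and 2.43 in Fes-/- and 2.76 and 2.42 in Fes+/+ macrophages. Psmb9 and Tap1 start 211 bases apart on chromosome 17 and are transcribed in opposite directions, and Psmb8 begins 495 bases after the end of Tap1.

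No proteasome gene was called between genotypes. With LPS, 0 of 41 members were called between Fes-/- and Fes+/+ macrophages by edgeR, where 0.108% of all tested genes were, and with PBS 0 of 41 against 0.0823%. For the difference of the LPS effects it was 0 of 41 against 0.019%. In all 3 comparisons 0 members had an unadjusted p under 0.05, and DESeq2 called 0. Log2 differences ran from -0.099 to 0.14 with LPS and from -0.076 to 0.11 with PBS, and every 95% interval lay within 1.5-fold in either direction. Psmb10 differed by -0.0028 (95% interval -0.19 to 0.19) with LPS and by -0.036 (95% interval -0.23 to 0.16) with PBS. Psmb8 differed by -0.028 (95% interval -0.29 to 0.23) and -0.021 (95% interval -0.28 to 0.24), and Psmb9 by -0.099 (95% interval -0.33 to 0.13) and -0.048 (95% interval -0.28 to 0.18), in the same order. Psmb5 differed by 0.035 (95% interval -0.28 to 0.35) with LPS and Psme2 by 0.026 (95% interval -0.22 to 0.27). For the LPS effect itself, the Fes-/- minus Fes+/+ difference was 0.033 (95% interval -0.24 to 0.30) for Psmb10 and -0.0069 (95% interval -0.37 to 0.36) for Psmb8. The 5 related lists also had 0 called genes between genotypes.

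The direction of these small differences depended on single libraries. With PBS, 28 of 41 members were higher in Fes-/- macrophages, 6 without Fes+/+ PBS library 2, and 23 to 36 with any other library left out. With LPS it was 27 of 41, with values of 18 without Fes-/- LPS library 2, 37 without Fes-/- LPS library 3, 36 without Fes+/+ LPS library 1, 14 without Fes+/+ LPS library 2, and 20 to 29 with any other library left out. With each library left out in turn, 0 members were called between genotypes.

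**Figure D5:**
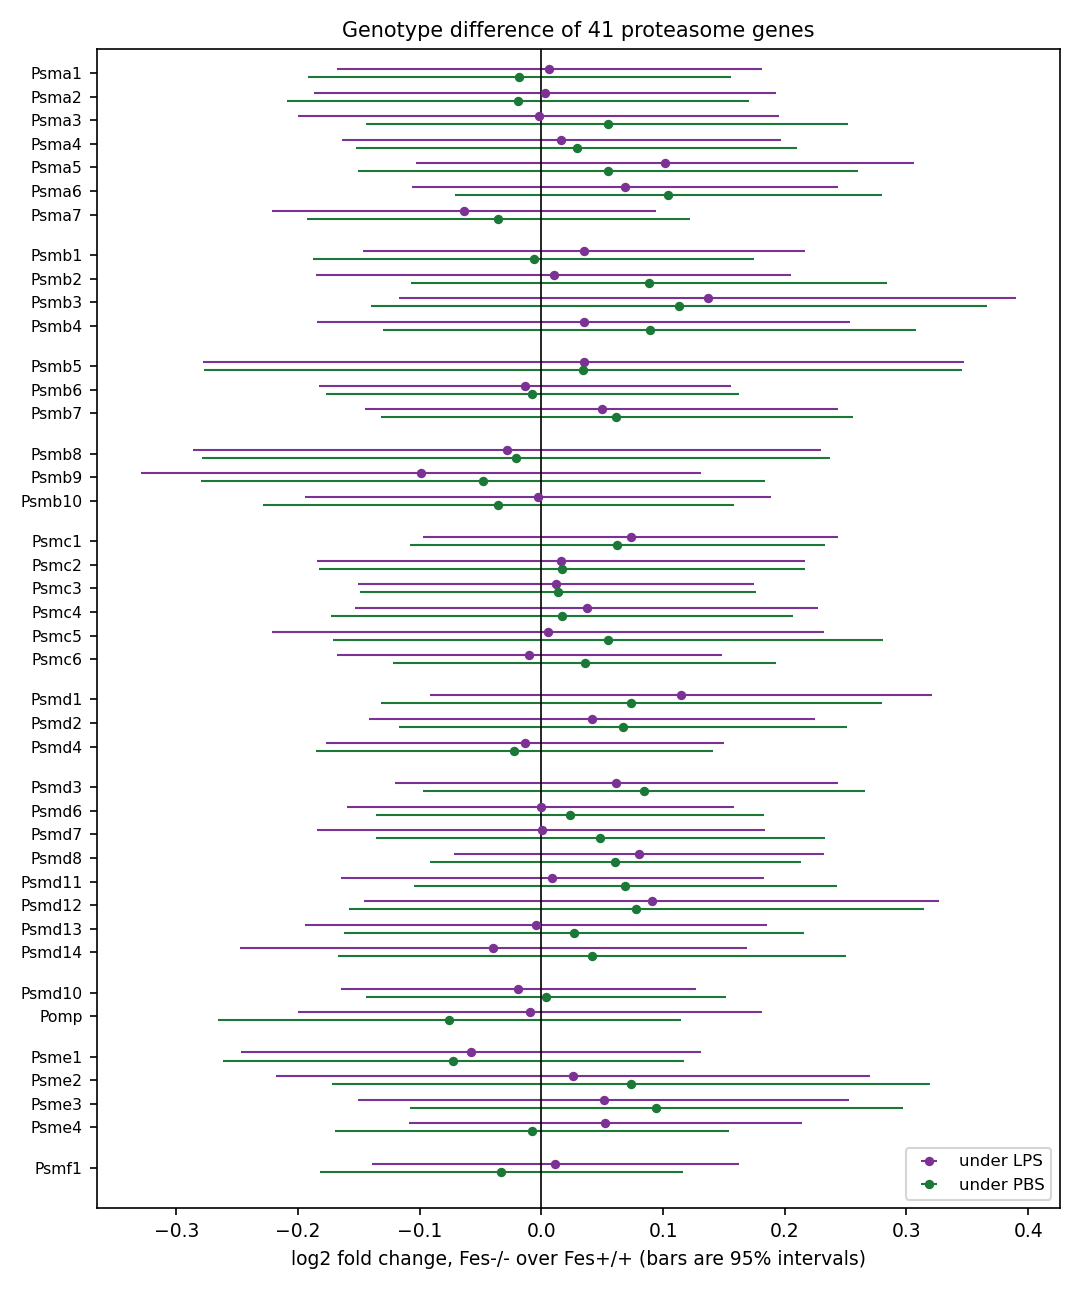
Log2 fold change of Fes-/- over Fes+/+ (horizontal axis, edgeR with 95% intervals) for the 41 genes grouped by role, with LPS above PBS. Every interval crosses 0 and lies within 1.5-fold, and no member was called in either treatment.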

How the data were processed

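Raw counts per gene were used as deposited by the authors, 1 column per library, and TPM values as deposited by the authors. Per the submitters' processing notes, the tools were Picard 2.9.0, STAR 2.7.8a, DESeq2 1.34.0 and R, with builds GRCm38 and mm9 named without roles. The sources used here do not give the counting program or its strand setting. Implied gene lengths lay within 1% of GENCODE M21 exon lengths (GRCm38) for 98.6% of 9482 genes, so positions come from that annotation.

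Counts were tested with edgeR 4.0.16 in R 4.3.3: filterByExpr over 4 groups (15801 genes kept), TMM, 1 mean per group over 12 libraries, robust quasi-likelihood F tests, two-sided, on 8 residual degrees of freedom. P-values were adjusted by Benjamini-Hochberg over all tested genes in each of 5 comparisons and called under 0.05. Alternatives used DESeq2 1.42.0, limma 3.58.1 on log2(TPM + 1) or log2(TPM + 0.1), other scalings and filters, replicate blocks and each library left out. The procedure was tested on simulated data. Other motifs searched in promoters are not reported here. Copies were sought with BLAST 2.17.0 at 90% identity over 200 bases, and figures drawn with matplotlib 3.10.9 in Python 3.11.15. Same-numbered LPS and PBS libraries of Fes+/+ macrophages deviated together from their group means, at correlations of 0.14, 0.17 and 0.14. Every pair thus passed a limit of 0.1, a rule on the data and not the labels. The main test held no block for number. Libraries of unlike genotype and number reached 0.22, so a value over this limit does not by itself mark a pair. The block for number within genotype is given where it changes a call. Nothing ties a number to a mouse, so p-values measure the spread between these libraries. No 2 libraries of a group agreed within sampling noise.

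The members and lists were chosen with earlier results of these data known. Genes named in every comparison were Psmb5 to Psmb10, Psme1, Psme2 and Pomp, then up to 12 called members with the smallest p. From each related list up to 4 genes with the smallest p were eligible. Psma1, Psmc1 and Psmf1 were named after their values were seen. Depth was 61016254 to 101027166 counts per library.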

Additional observations from a re-analysis of the deposited data

How the results depend on the processing

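Scaling decided the LPS results of most members, and its effect is the shift of all genes given above. With library totals alone, the test called 10 members up and 18 down with LPS in Fes-/- macrophages, 11 and 17 in Fes+/+ macrophages. Of all tested genes, library totals put 15.9% up and 70% down in Fes-/- macrophages, 16.3% and 68.5% in Fes+/+ macrophages. By limma-trend with either pseudocount the members up and down were 10 and 21 in Fes-/- and 10 and 19 in Fes+/+ macrophages. In TPM, 71.3% and 69.1% of all tested genes were lower in every LPS library, in the same order. The following log2 fold changes turned negative with library totals, with log2(TPM + 1) and with log2(TPM + 0.1), in that order. In Fes-/- macrophages they were -0.21, -0.25 and -0.25 for Pomp, -0.32, -0.35 and -0.36 for Psmb5, -0.085, -0.13 and -0.13 for Psmb6, -0.14, -0.18 and -0.18 for Psmb7, -0.079, -0.12 and -0.12 for Psmd14, and -0.030, -0.072 and -0.073 for Psmd7. In Fes+/+ macrophages they were -0.25, -0.27 and -0.28 for Pomp, -0.29, -0.30 and -0.30 for Psmb5, -0.057, -0.083 and -0.083 for Psmb6, and -0.10, -0.13 and -0.13 for Psmb7. Psme4 turned negative there with both pseudocounts, at -0.012 and -0.013. Of the negative values given here for library totals, edgeR called only those of Pomp (adjusted p = 0.0388 in Fes-/- and 0.0152 in Fes+/+ macrophages).

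The averaged subunit ratio was also taken from TMM-scaled CPM without length correction. It was 1.42 with LPS against 0.14 with PBS in Fes-/- macrophages and 1.49 against 0.21 in Fes+/+ macrophages. The sign of the PBS means was thus positive there and negative in TPM. From summed TPM the ratio was 0.86 in Fes-/- LPS libraries. With each library left out, members called higher ranged from 39 to 41 in both genotypes, and the ratio difference from 1.21 to 1.39 in Fes-/- and 1.20 to 1.32 in Fes+/+ macrophages. Members higher in TPM in every LPS library ranged from 11 to 12 in Fes-/- and stayed at 12 in Fes+/+ macrophages, and those lower ranged from 25 to 26 in Fes-/- and 16 to 25 in Fes+/+ macrophages, a count chosen after seeing the data. With DESeq2 and with RLE factors 41 members were higher in both genotypes, and without a filter 38.

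Same-numbered Fes-/- libraries correlated at 0.068, 0.089 and 0.19, so not every pair passed 0.1. Within both genotypes each library correlated best with its own number, a hint from the data and not the design. With the replicate block, 39 members were higher in both genotypes, and with the replicate block within genotype 41 were, Psma1 and Psmc1 being the ones added in Fes+/+ macrophages. It changed no other member's call. All 41 members lay above the all-gene median under each alternative except log2(TPM + 1), where 39 did in both genotypes, and the cause was not tested. Between genotypes, 0 members were called under every alternative run, while calls among all genes were 37 by DESeq2 and 358 without a filter, against 17, with LPS, 33 and 315, against 13, with PBS, and 5 and 90, against 3, for the difference of the LPS effects. Limma-trend gave 6 and 5 and the replicate block 2 for the last.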
